A study of Homo sapiens with 6 samples.

Results

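CA19-9, the serum marker of biliary and pancreatic cancer, is the sugar sialyl Lewis a, and it is built by glycosyltransferases of the Golgi. The 10 enzyme genes examined were B3GALT5, B4GALT1, FUT2, FUT3, FUT4, FUT8, ST3GAL3, ST3GAL4, ST3GAL6 and ST6GAL1. Their rows were found by gene symbol, from a list drawn up with earlier results of these data known, and all 10 were among the 23569 genes listed. RNA was sequenced from TFK1 cells, a human line from an extrahepatic bile duct carcinoma, in 6 libraries. The oeNC group (n = 3) carried a negative control lentivirus, and the oeSTUB1 group (n = 3) carried a lentivirus for overexpression of STUB1, a ubiquitin ligase. Both groups were stable, puromycin-selected populations of the same line, and the labels give no time after selection. The study compared them to look for genes that depend on STUB1 through UHRF1 and DNMT1, which maintain DNA methylation. The labels do not say that replicates were separate cultures, so p-values measure only the spread between these samples, which may be technical.

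In sialyl Lewis a, B3GALT5 first adds galactose to N-acetylglucosamine and forms the type 1 chain, ST3GAL enzymes cap that galactose with sialic acid, and FUT3 adds the final fucose. B4GALT1 makes the competing type 2 chain, which carries Lewis x and sialyl Lewis x after the action of enzymes such as FUT4, ST3GAL4 and ST3GAL6, or is capped by ST6GAL1. FUT2, the secretor enzyme, fucosylates the type 1 galactose itself, and FUT8 adds the core fucose of N-glycans. People without active FUT3 make no CA19-9.

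Expression is given as FPKM, fragments scaled to gene length and to the library total. Levels of different genes can thus be set side by side, but they depend on the gene lengths used. Differences are log2 fold changes of oeSTUB1 over oeNC on the log2(FPKM + 0.1) scale from limma, which understates the change of low genes. A gene was called at a Benjamini-Hochberg adjusted p under 0.05 over all 15353 genes tested, those averaging 0.1 FPKM or more across the 6 libraries. In all, 2088 genes (13.6%) were called, 1076 (7.01%) higher and 1012 (6.59%) lower, and 798 (5.2%) also passed an absolute log2 fold change of 1. Library totals, recovered from the steps in the FPKM values, lay between 33106564 and 36744521 fragments. The library oeSTUB1 replicate 2 stood apart, with chi-square values of 82.4 and 76.2 per degree of freedom against the other replicates of its group, where the other pairs of replicates gave 3.48 to 10.5. STUB1 itself counted 1633, 1636 and 1620 fragments in oeNC against 3023, 3547 and 3022 in oeSTUB1, a log2 fold change of 1.03 (SE 0.0966, adjusted p = 0.000642). The summed level of 7 markers of biliary and simple epithelium was 7420 to 8000 FPKM in oeNC and 4720 to 6260 FPKM in oeSTUB1. Most of it was KRT8 (means of 3216 and 2172 FPKM) and KRT18 (3964 and 2488 FPKM). KRT8, KRT18, EPCAM and CDH1 were called lower. KRT19 was called higher but was low, with means of 0.453 and 2.97 FPKM. KRT7 rose from a mean of 502 to 704 FPKM and was not called (adjusted p = 0.0818 from limma), nor was SOX9. Markers of other cell types summed to at most 3.92 FPKM for hepatocytes, fibroblasts or endothelium, and the leukocyte list, 27.1 to 27.8 FPKM in oeNC and 19.5 to 19.7 FPKM in oeSTUB1, consisted almost wholly of CD68. The part of these shifts in the results was not tested, and in bulk RNA fewer cells of a type and less RNA per cell cannot be told apart.

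B3GALT5 had the largest log2 fold change in size among the 8 tested enzyme genes as reported, but not with a pseudocount of 1 (0.283 against -0.33 for ST3GAL6) or without oeSTUB1 replicate 3 (0.751 against -0.832), and because the study concerns DNA methylation its start regions are shown here. The protein-coding gene spans bases 39556442 to 39673137 of chromosome 21, plus strand (GRCh38, GENCODE release 29), and has a pair of starts in the RefSeq promoter table (GRCh38.p14). Both RefSeq starts lie inside the GENCODE span, so the region before base 39556442 is not shown. The 250 bases before each start follow, 5′ to 3′ on the plus strand, with every CG, the pair of bases that can be methylated, in capitals.
B3GALT5 upstream start, chr21:39612690-39612939: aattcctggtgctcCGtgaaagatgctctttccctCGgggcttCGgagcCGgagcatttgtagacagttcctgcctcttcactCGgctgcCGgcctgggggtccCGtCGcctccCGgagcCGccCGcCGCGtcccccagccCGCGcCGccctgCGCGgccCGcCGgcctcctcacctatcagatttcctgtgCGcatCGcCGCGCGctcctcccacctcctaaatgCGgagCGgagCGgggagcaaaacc
B3GALT5 downstream start, chr21:39642146-39642395: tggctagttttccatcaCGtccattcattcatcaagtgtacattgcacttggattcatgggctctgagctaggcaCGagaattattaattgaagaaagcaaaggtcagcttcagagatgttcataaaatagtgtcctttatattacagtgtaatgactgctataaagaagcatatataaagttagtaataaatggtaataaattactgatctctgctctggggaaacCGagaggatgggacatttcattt
The bases just after the upstream start were found in a protein-coding B3GALT5 transcript of GENCODE release 29, and those after the downstream start were not, so the latter rests on RefSeq alone here. The upstream window held 28 CG and the downstream window 3. Among 35116 windows of this length in the table, 93.9% held a CG, the median was 11, and 15.9% had at least 28 whereas 77.1% had at least 3. Gene-level FPKM does not tell which start was used, and no methylation was measured in these libraries.

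B3GALT5, the type 1 chain galactosyltransferase, was at 0.151, 0.187 and 0.193 FPKM in oeNC and at 0.492, 0.265 and 0.555 FPKM in oeSTUB1. These values stood for 71, 88 and 96 fragments against 230, 119 and 257. All 3 oeSTUB1 values lay above all 3 oeNC values, and oeSTUB1 replicate 2 was the nearest to the control range. Mean levels were 0.177 ± 0.0227 for oeNC and 0.438 ± 0.152 for oeSTUB1 (FPKM ± SD, n = 3 each), a ratio of 2.47. The log2 fold change was 0.92 (SE 0.262, 95% confidence interval 0.309 to 1.52), with an adjusted p of 0.057 from limma, so the gene was not called. Leaving out oeSTUB1 replicate 2 gave 1.17 (adjusted p = 0.00794 from limma), and limma-voom on the recovered fragments gave 1.24 (adjusted p = 0.0306). These settings called 4118 and 2164 genes in all, against 2088 as reported. Over 14 alternative settings the sign stayed positive and the adjusted p ran from 0.00794 to 0.175, with 4 settings under 0.05. Even in oeSTUB1 cells the transcript was scarce, under 0.6 FPKM in each library.

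**Figure D1:**
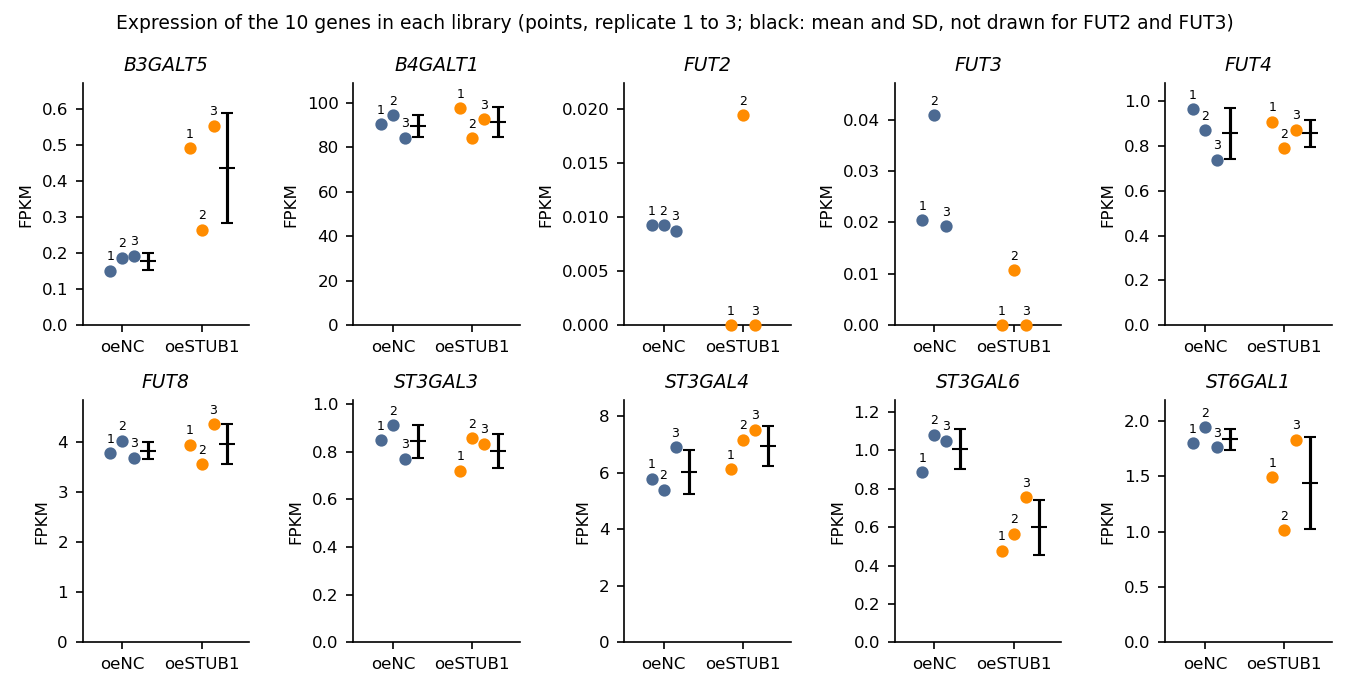
FPKM of the 10 enzyme genes (vertical axes, linear, from 0, a separate scale for each gene) in the 3 oeNC and 3 oeSTUB1 libraries, numbered by replicate, with mean and SD in black for all but FUT2 and FUT3. The groups do not overlap for B3GALT5, ST3GAL6 and FUT3, and FUT3 stays at or below 0.0408 FPKM.

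B4GALT1, a type 2 chain galactosyltransferase, was far more abundant. Its level was 90.4, 94.4 and 84.3 FPKM in oeNC and 97.7, 84.1 and 92.8 FPKM in oeSTUB1, with overlapping groups. Its mean level over the libraries stood at percentile 97.8 of all listed genes. The log2 fold change was 0.03 (SE 0.0875, 95% confidence interval -0.174 to 0.231, adjusted p = 0.862), and its sign changed with quantile normalization and when single libraries were left out. B4GALT1 lies on chromosome 9 (33104082 to 33167356, minus strand), where 66.7% of 604 tested genes had a log2 fold change above 0 and the median was 0.159, against 0.019 over all genes. For each unit of B3GALT5 FPKM there were 599, 504 and 437 units of B4GALT1 FPKM in oeNC and 198, 317 and 167 in oeSTUB1. The size of these ratios depends on the gene lengths used, recovered as 13554 bases for B3GALT5 and 4881 for B4GALT1. Not scaled to length, B4GALT1 had 15309, 15968 and 15117 fragments in oeNC against 71, 88 and 96 of B3GALT5. In oeSTUB1 it had 16428, 13597 and 15472 against 230, 119 and 257. These ratios share the B3GALT5 values above, cover B4GALT1 alone among the B4GALT genes, and are given as a description without a test.

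B4GALT1-AS1, an antisense RNA whose exons overlap B4GALT1 on the opposite strand, was added after its values were seen. It was at 0.0856, 0.0214 and 0.0202 FPKM in oeNC and 0.172, 0.606 and 0.348 FPKM in oeSTUB1. These levels stood for only 4, 1 and 1 fragments against 8, 27 and 16. On the log2 scale limma put the rise at 1.66, with 0.0267 as its adjusted p. The oeNC mean alone, 0.0424 FPKM, lay under the 0.1 FPKM of the filter, which applies to the mean over all 6 libraries. The size of the rise thus rests on very few control fragments, and its values under the alternative settings are not reported here. Reads of overlapping exons cannot be assigned, since the strand setting of the counting is not given in the sources used here.

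FUT3, the Lewis fucosyltransferase of the last step of sialyl Lewis a, was close to undetected. The oeNC libraries held 2, 4 and 2 of its fragments (0.0204, 0.0408 and 0.0193 FPKM), against 0, 1 and 0 for oeSTUB1 (0, 0.0107 and 0 FPKM). A count of 3 fragments, the limit that a count of 0 allows, correspond to 0.0289 to 0.0321 FPKM for this gene. The groups did not overlap, but the gene was below the filter and was not tested. Summed over the group, 8 fragments of 106112967 in oeNC stood against 1 of 101733709 in oeSTUB1, a ratio of 0.13 (95% exact counting interval 0.0029 to 0.972, counting error only). With no filter on low values the log2 fold change was -0.29 (adjusted p = 0.127 from limma).

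FUT5 and FUT6 are near copies of FUT3 beside it on chromosome 19. Of the stretches of 50 bases in FUT3 transcripts, 15.6% also occur in FUT5 or FUT6, whereas none of the other 9 enzyme genes shared a stretch with another of these genes. FUT5 had 3 fragments in oeNC and 1 in oeSTUB1, and FUT6 had 0 and 5. The 3 genes together had 11 and 7 fragments, a ratio of 0.664 (95% exact counting interval 0.22 to 1.87). How reads matching several genes were counted is not given in the sources used here, so the split of these few fragments among FUT3, FUT5 and FUT6 is uncertain.

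FUT2, the secretor fucosyltransferase, had 1 fragment in each oeNC library and 0, 2 and 0 fragments in oeSTUB1, with at most 0.0194 FPKM. All of these are at or under 3 fragments, and no fold is given. The groups overlapped.

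FUT4 and FUT8 differed between the groups by less than their SE. FUT4, a Lewis x fucosyltransferase, was at 0.964, 0.869 and 0.738 FPKM in oeNC and 0.908, 0.789 and 0.872 FPKM in oeSTUB1. Its log2 fold change was 0.004 (SE 0.154, adjusted p = 0.989), with a 95% confidence interval of -0.352 to 0.359. FUT8, the core fucosyltransferase, was at 3.78, 4.03 and 3.69 FPKM in oeNC and 3.95, 3.56 and 4.36 FPKM in oeSTUB1. Its log2 fold change was 0.04 (SE 0.108, adjusted p = 0.834), with a 95% confidence interval of -0.209 to 0.292. In both genes the groups overlapped, and the signs changed when single libraries were left out.

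Of the 13 fucosyltransferase genes in a list that also holds the O-fucosyltransferases POFUT1 and POFUT2, 12 were listed and 6 passed the filter. FUT1, FUT2, FUT3, FUT5, FUT6 and FUT7 were below it, with no more than 8 fragments in the 3 libraries of either group. None of the 6 tested genes was called by limma, by limma-voom or at an unadjusted p under 0.05. Their log2 fold changes ran from -0.057 to 0.148, the highest in FUT11 (adjusted p = 0.618), and their median was -0.008. Without oeSTUB1 replicate 2 the FUT11 value was 0.345 (adjusted p = 0.0429 from limma), in a setting that called 4118 genes in all.

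ST3GAL6, which caps type 2 chains and takes part in making selectin ligands, was at 0.884, 1.08 and 1.05 FPKM in oeNC and 0.476, 0.566 and 0.754 FPKM in oeSTUB1. The fragments were 131, 160 and 165 against 70, 80 and 110. Every oeSTUB1 value lay below every oeNC value. Mean levels were 1.01 ± 0.106 for oeNC and 0.599 ± 0.142 for oeSTUB1 (FPKM ± SD, n = 3 each), a ratio of 0.595. The log2 fold change was -0.68 (SE 0.189, 95% confidence interval -1.11 to -0.24), with an adjusted p of 0.0526 from limma, so the gene was not called. Limma-voom gave -0.77 (adjusted p = 0.0393), and without oeSTUB1 replicate 3 the adjusted p was 0.0347. Over 14 alternatives the sign stayed negative, 5 were under 0.05, and the adjusted p ran from 0.0347 to 0.186. In GENCODE release 29 its exons on chromosome 3 overlap those of DCBLD2 on the opposite strand, which was at 197, 206 and 216 FPKM in oeNC and 247, 184 and 254 FPKM in oeSTUB1.

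ST3GAL4, which also caps type 2 chains, was the most abundant of the 4 sialyltransferases examined. It was at 5.79, 5.40 and 6.91 FPKM in oeNC and 6.14, 7.18 and 7.53 FPKM in oeSTUB1, with oeNC replicate 3 inside the oeSTUB1 range. The log2 fold change was 0.20 (SE 0.125, 95% confidence interval -0.085 to 0.492, adjusted p = 0.318). ST3GAL3, which sialylates type 1 chains, was at 0.849, 0.911 and 0.771 FPKM in oeNC and 0.720, 0.856 and 0.834 FPKM in oeSTUB1. Its log2 fold change was -0.06 (SE 0.147, 95% confidence interval -0.405 to 0.277, adjusted p = 0.808), with overlapping groups, and its sign too changed with quantile normalization and with a library left out.

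ST6GAL1, which places sialic acid on type 2 chains through another linkage, was at 1.80, 1.94 and 1.76 FPKM in oeNC and 1.49, 1.01 and 1.83 FPKM in oeSTUB1. The value of oeSTUB1 replicate 3 lay inside the oeNC range and that of replicate 2 was the lowest. The log2 fold change was -0.36 (SE 0.203, 95% confidence interval -0.832 to 0.108, adjusted p = 0.278).

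The summed FPKM of ST3GAL3, ST3GAL4 and ST3GAL6 was 7.52, 7.39 and 8.73 in oeNC and 7.34, 8.60 and 9.11 in oeSTUB1, with overlapping groups. ST3GAL4 supplied 77.0%, 73.1% and 79.1% of this sum in oeNC and 83.7%, 83.5% and 82.6% in oeSTUB1. ST3GAL6 supplied 11.8%, 14.6% and 12.0% in oeNC and 6.49%, 6.58% and 8.27% in oeSTUB1. The sum divided by ST6GAL1 was 4.19, 3.82 and 4.96 in oeNC and 4.93, 8.56 and 4.98 in oeSTUB1, where replicate 2 was high. These sums and shares are descriptions with no test.

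**Figure D2:**
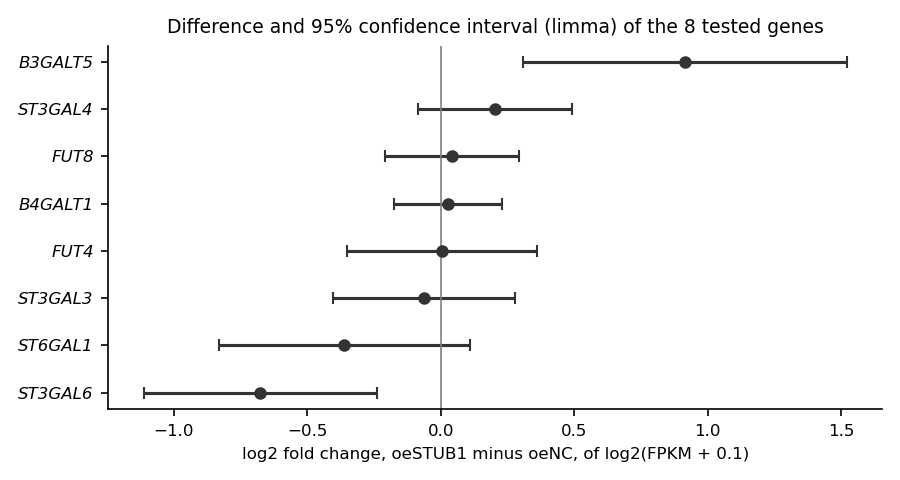
Log2 fold change of oeSTUB1 over oeNC on the log2(FPKM + 0.1) scale (horizontal axis) for the 8 tested enzyme genes, with 95% confidence intervals from limma. The intervals of B3GALT5 (0.309 to 1.52) and ST3GAL6 (-1.11 to -0.24) lie on one side of 0 and the other 6 include it.

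Taking the 10 genes as a set, 8 passed the filter and 0 were called, where 13.6% of all tested genes were. At an unadjusted p under 0.05 there were 2, B3GALT5 and ST3GAL6, where 29.7% of all genes passed. The same 2 genes were called by limma-voom, which called 2164 of 15353 genes in all. Groups did not overlap in 2 of the 8 tested genes, against 38.8% of all genes. The log2 fold changes had a median of 0.016 and ran from -0.677 to 0.916. The two-sided exact permutation test of the FPKM values, whose smallest p for 3 libraries against 3 is 0.1 and which therefore cannot reach 0.05, gave 0.1 for B3GALT5 and ST3GAL6 and between 0.2 and 1.0 for the other 6.

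**Figure D3:**
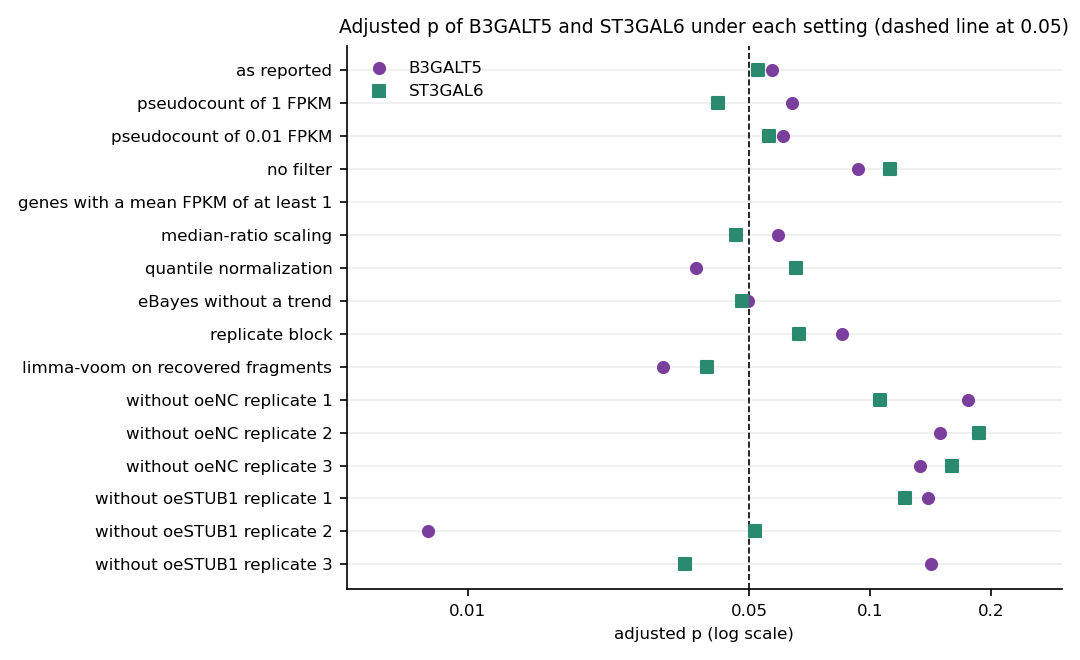
Adjusted p (horizontal log axis) of B3GALT5 (circles) and ST3GAL6 (squares) as reported and under the alternative settings, with a dashed line at 0.05. As reported the values are 0.057 and 0.0526, both just above the line, and at a minimum mean of 1 FPKM neither gene is tested.

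In order of level, the oeNC cells held B4GALT1 first, then ST3GAL4, FUT8, ST6GAL1, ST3GAL6, FUT4, ST3GAL3, B3GALT5, FUT3 and FUT2. The ranges of ST3GAL6 and FUT4, and of FUT4 and ST3GAL3, overlapped, and all other neighbours were separated in the 3 libraries. The order of FUT3 and FUT2 there rests on only 2, 4 and 2 against 1, 1 and 1 fragments and is uncertain. In oeSTUB1 cells the first 4 were in the same order. FUT4, ST3GAL3, ST3GAL6 and B3GALT5 then followed, each overlapping the next. The ranges of B3GALT5 and ST3GAL6 thus overlapped in oeSTUB1 cells and were apart in oeNC cells. FUT2 and FUT3 were last and could not be ordered.

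The wider pathway was described with 8 gene lists of 139 genes, of which 112 were tested and 23 (20.5%) were called, 13 higher and 10 lower. The median log2 fold change over these 112 genes was 0.024, near that of all genes. Among 14 tested sialyltransferases, 3 were called without oeSTUB1 replicate 3, where 1613 genes were called in all. With all 6 libraries, 0 were higher and 1 was lower (7.14%), with a median of -0.200. That gene was ST3GAL5, the GM3 synthase of gangliosides, which fell from 13.4 ± 0.636 to 9.32 ± 0.690 FPKM (SD, n = 3 each), a log2 fold change of -0.52 (SE 0.0886, adjusted p = 0.00827). Its highest oeSTUB1 value was 9.82 FPKM, and the groups did not overlap.

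Of 25 tested genes in the chain-building list, B3GALT5 and B4GALT1 included, 5 were higher and 4 lower (36.0%), with a median of 0.028. That list was drawn up from galactosyl-, N-acetylglucosaminyl- and N-acetylgalactosaminyltransferase genes. B4GALNT3, which makes the LacdiNAc unit in place of a lactosamine, fell from 0.834, 1.08 and 0.768 FPKM to 0.375, 0.385 and 0.400 FPKM, a log2 fold change of -1.02 (SE 0.173, adjusted p = 0.00813). The other 8 called genes were chosen after their values were seen. B3GNT5, which starts lacto-series glycolipids, rose by 0.841 on the log2 scale (adjusted p = 0.00544), and B3GNT9 by 0.934 (adjusted p = 0.0109). GCNT3, a mucin branching enzyme, rose by 0.569 (adjusted p = 0.00667), as did B4GALNT4 and B3GALT6 by 0.517 and 0.442. B3GNT3, which extends O-glycan chains, fell by 0.893 (adjusted p = 0.00779), GCNT2, the I-branching enzyme, fell by 0.647 (adjusted p = 0.01), and B4GALT4 fell by 0.517 (adjusted p = 0.00553). ST3GAL5, B4GALNT3, B3GNT5, GCNT3, B3GNT3 and B4GALT4 were called under every alternative that tested them, whereas B3GALT6 was called under 6 of 15, B4GALNT4 under 10, GCNT2 under 13 and B3GNT9 under 14. The count for this list was 5 without oeNC replicate 1, 6 without oeNC replicate 2 and 13 with oeSTUB1 replicate 2 left out. Called genes in all moved the same way, to 953, 927 and 4118 in these settings, against 2088 with all libraries.

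**Figure D4:**
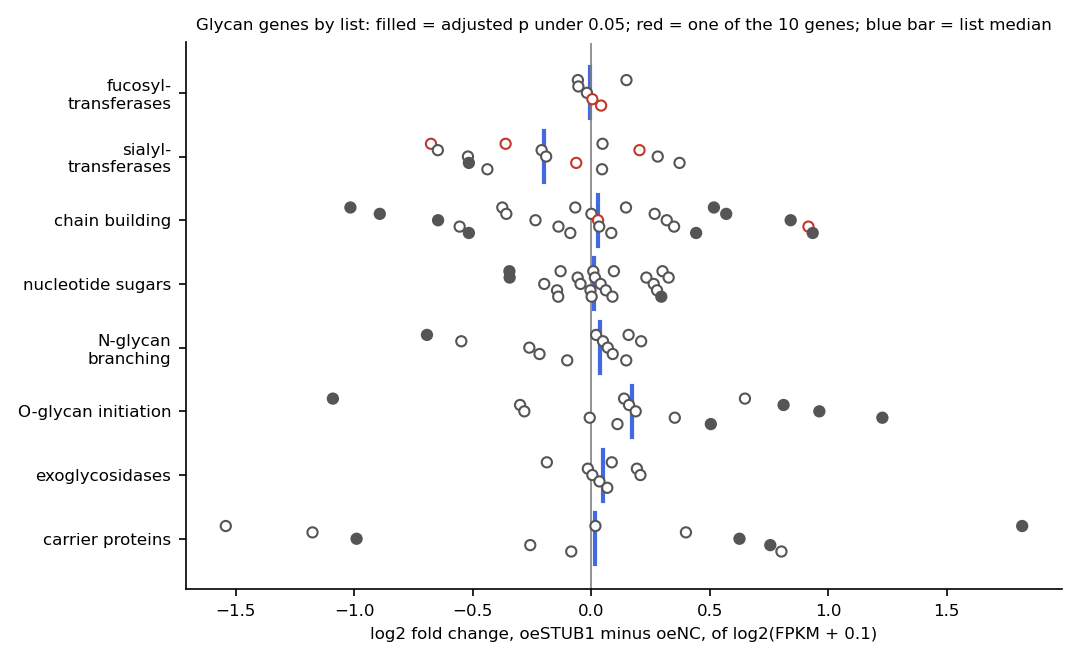
Log2 fold change (horizontal axis, log2(FPKM + 0.1) scale) of the 112 tested genes of 8 glycan lists, where filled points are called, red points are among the 10 enzyme genes and blue bars are list medians. The 6 tested fucosyltransferases lie between -0.057 and 0.148, and no red point is filled.

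Genes that start mucin-type O-glycans had 4 higher and 1 lower of 14 tested (35.7%), with a median of 0.173. GALNT5 rose from 0.149 ± 0.0366 to 0.486 ± 0.112 FPKM (SD, n = 3 each), a log2 fold change of 1.23 (SE 0.232, adjusted p = 0.0126), and GALNT6 fell from 1.95 ± 0.0884 to 0.876 ± 0.208 FPKM, a log2 fold change of -1.09 (SE 0.181, adjusted p = 0.00728). Both transfer the first N-acetylgalactosamine to serine or threonine. GALNT1, GALNT10 and GALNT13, chosen after their values were seen, rose by 0.504, 0.811 and 0.962 on the log2 scale. GALNT5 lost its call without oeNC replicate 2 or 3 (adjusted p up to 0.054), and the other 4 kept theirs under all 15 alternatives.

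Of 22 tested genes for nucleotide sugars and their Golgi transport, 1 was higher and 2 lower (13.6%), the same share as among all genes. UGP2, which makes UDP-glucose, fell from 74.3 ± 1.24 to 58.5 ± 3.67 FPKM (SD, n = 3 each), a log2 fold change of -0.34 (SE 0.0761, adjusted p = 0.0232). UGP2 was called under 8 of 15 alternatives, and of the libraries left out in turn it kept its call only without oeSTUB1 replicate 2. Among 12 tested genes of N-glycan trimming and branching, 0 were higher and 1 was lower (8.33%). It was the branching enzyme MGAT4A, which fell from 1.35 ± 0.191 to 0.796 ± 0.138 FPKM, a log2 fold change of -0.69 (SE 0.172, adjusted p = 0.0356). MGAT4A was called under 9 of 15 alternatives and lost its call with no filter, with the replicate number as a block, without any one of the oeNC replicates or without oeSTUB1 replicate 3 (adjusted p up to 0.151). None of the 8 tested sialidases and other exoglycosidases was called by limma or limma-voom, and 1 had an unadjusted p under 0.05.

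Proteins that carry Lewis-type glycans had 3 higher and 1 lower of 11 tested (36.4%), with a median of 0.017. The largest falls, picked after their values were seen, were in the mucins MUC16 and MUC5B, and neither was called. Their log2 fold changes were -1.54 and -1.18 (adjusted p = 0.0755 and 0.127 from limma). MUC16 was at 1.18, 1.59 and 1.67 FPKM in oeNC and 0.6, 0.128 and 0.864 FPKM in oeSTUB1. MUC5B was at 41.8, 46.4 and 57.2 FPKM in oeNC and 23.9, 9.64 and 41.1 FPKM in oeSTUB1. In both, oeSTUB1 replicate 2 was the lowest and the groups did not overlap, as in 38.8% of all tested genes. For MUC5B the gap was narrow, 41.1 against 41.8 FPKM. LGALS3BP, a secreted glycoprotein that binds galectins, was at 17.9, 16.1 and 19.4 FPKM in oeNC and 57.3, 64.1 and 67.5 FPKM in oeSTUB1, a log2 fold change of 1.82 (SE 0.0989, adjusted p = 7.88e-05). The other 3 called carriers were chosen after their values were seen. MUC1, a membrane mucin, rose from 1.16 ± 0.116 to 2.01 ± 0.105 FPKM (adjusted p = 0.00778), and CD44, the hyaluronan receptor, rose from 43.4 ± 3.21 to 67.2 ± 8.34 FPKM (adjusted p = 0.00887). CEACAM5, the carcinoembryonic antigen, fell from 3.22 ± 0.421 to 1.61 ± 0.522 FPKM (adjusted p = 0.0205, SD and n = 3 throughout). LGALS3BP and MUC1 kept their calls under all 15 alternatives, CD44 under 14 (not without oeNC replicate 1) and CEACAM5 under 11, with adjusted p up to 0.0853 when any oeNC replicate or oeSTUB1 replicate 1 was left out.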

How the data were processed

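Total RNA of TFK1 cells was sequenced in 3 oeNC and 3 oeSTUB1 libraries, grouped by their labels and matched to columns by name (0 value columns had no sample). For 23569 gene symbols the authors deposited FPKM values. The submitters' processing notes name fastp 0.20.1, HISAT2 2.1.0, HTSeq 0.11.2, R 3.2.0, DESeq2 1.22.2 and GRCh38.p13 without a role. The annotation and the strand setting are not given in the sources used here. FPKM divides by gene length and by all fragments counted in the library, so a few very abundant genes can shift the others.

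Whole fragments were recovered from the FPKM steps for 23569 of 23569 genes (100.0%), with recomputed FPKM within 4.9e-06 of the deposited values. A common divisor may be missing from a gene's fragments. Fragments on listed genes made up 99.7% of each total. The groups were compared by two-sided limma tests (version 3.58.1, R 4.3.3, eBayes with a trend) of log2(FPKM + 0.1) in genes averaging 0.1 FPKM or more, with Benjamini-Hochberg adjustment over all of them. The paper names Student's t test in general and no tool for RNA-seq. Python 3.11.15 with scipy 1.17.1 served for the permutation tests. Shared stretches, exon overlaps and coordinates come from GENCODE release 29.

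The 10 genes and the 8 lists were chosen with earlier results of these data known. Named were the 10 genes, STUB1, FUT5, FUT6 and, from each list, the called genes with an absolute log2 fold change over 1 (at most 3 each way) or, where there was none, the gene with the smallest adjusted p. A further gene is not reported here. Other genes are marked where they appear, apart from overlapping genes and cell type markers.

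The steps were tested on simulated data. Exact recovery was reached for 98.8% of 22633 genes there, and limma called 184 of 189 genes that had been changed 4-fold, in the right direction, plus 18 others, out of 15323. The simulation set the same relative spread for all genes and libraries, with no library standing apart. It therefore does not show how often smaller changes would be called in these data. Alternatives numbered 15: a pseudocount of 1 or 0.01, no filter, a minimum mean of 1 FPKM, median-ratio scaling, quantile normalization, no trend, the replicate number as a block, limma-voom on the fragments, and leaving out each library.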

Additional observations from a re-analysis of the deposited data

How the results depend on the processing

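The cause of each change below was not tested. Leaving out single libraries gave 927 (without oeNC replicate 2) to 4118 (without oeSTUB1 replicate 2) called genes in all. Of the 10 enzyme genes, 1 was called with a pseudocount of 1 or median-ratio scaling (ST3GAL6 both times), 1 with quantile normalization (B3GALT5), 2 with no trend or limma-voom, and 0 to 1 when a library was left out (B3GALT5 without oeSTUB1 replicate 2, ST3GAL6 without oeSTUB1 replicate 3). Over all genes tested, 2125 were called with a pseudocount of 1, 2034 with median-ratio scaling and 2230 with quantile normalization. The totals were 1870 with no trend, 2164 with limma-voom and 1613 without oeSTUB1 replicate 3, against 2088 as reported. B3GALT5 was at 0.97 with quantile normalization (adjusted p = 0.037), 0.92 with no trend, 1.24 with limma-voom, and 0.751 to 1.17 with libraries left out. A pseudocount of 1 gave 0.283. ST3GAL6 was at -0.33 with a pseudocount of 1 (adjusted p = 0.0418), -0.70 with median-ratio scaling, -0.68 with no trend, -0.77 with limma-voom, and -0.832 to -0.547 with libraries left out. Signs reversed for FUT4 (-0.017 with median-ratio scaling, -0.089 to 0.084 with libraries left out), FUT8 (-0.030 to 0.113), B4GALT1 (-0.054 with quantile normalization, -0.020 to 0.087) and ST3GAL3 (0.005 with quantile normalization, -0.120 to 0.004), with adjusted p-values of at least 0.296. ST3GAL4 and ST6GAL1 kept their signs and were called under none of the 15 alternatives. At a minimum mean of 1 FPKM, FUT4, B3GALT5, ST3GAL3 and ST3GAL6 were not tested.

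With libraries left out, called genes numbered 0 to 1 of the fucosyltransferases, 1 to 3 of the sialyltransferases, 5 to 13 of the chain-building genes, 0 to 6 of the nucleotide sugar genes, 0 to 3 of the N-glycan genes and 2 to 6 of the carriers. Sialyltransferases numbered 2 with a pseudocount of 1, median-ratio scaling, no trend or limma-voom. Nucleotide sugar genes numbered 0 with no trend, and N-glycan genes 0 with no filter. Same-numbered samples of the groups correlated at -0.049, -0.052 and 0.062 in their deviations, and not every sample correlated best with its own number. Pairing by number was thus not visible, but 3 libraries a group cannot show that it was absent. With the replicate block 1488 genes in all were called, with 0 of the 10 enzyme genes, 0 nucleotide sugar genes and 0 N-glycan genes, and B3GALT5 and ST3GAL6 had adjusted p-values of 0.085 and 0.0665. Depth limits FUT2 and FUT3, which rest on at most 8 fragments in a group, and the interval of the FUT3 ratio covers counting error only.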
